A study of Mus musculus with 22 samples.

Results

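The 4 mouse Hox clusters were described through every deposited peak of the histone mark H3K27me3 that overlapped their coordinates, whatever gene name the peak carried. The rule took 5 of the 19034 peaks: 1 over HoxA, 2 over HoxB, 1 over HoxC and 1 over HoxD. All 38 Hox genes listed for the description lay wholly inside these peaks. The mark was mapped in retinas of mouse embryos at embryonic day 18.5 by CUT&RUN, in which an antibody guides a nuclease that cuts free the marked chromatin for sequencing. The conditional knockouts (cKO) were 5 animals labelled Jarid2 fl/fl; Rx-cre. The 5 controls were labelled Jarid2 fl/+ (3 animals), Jarid2 fl/+; Rx-cre (control 1) and Jarid2 fl/fl (control 3), while the protocol text names Jarid2 fl/fl alone, so the controls were not of a single genotype. All animals were C57BL/6, came from mothers given tamoxifen at 75 µg per g at E10.5, and contributed 2 pooled retinas each. The Cre, called Rax-CreERT2 in the protocol text, is driven by a promoter of retinal progenitors, so cells of other origin in a dissected retina would keep Jarid2. Batch 1 held cKO 1 (female), cKO 2 (male), control 1 (male) and control 2 (female), all littermates, and batch 2 held 3 cKO and 3 control males with 2 technical duplicates each.

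Hox genes encode homeodomain transcription factors that give cells of the trunk, hindbrain and limbs their position along the body axis, and they are switched on in the order in which they lie in a cluster. Eye and forebrain form in front of the Hox expression domains. Polycomb repressive complex 2 (PRC2) trimethylates lysine 27 of histone H3, and silent Hox clusters are a textbook example of long stretches carrying that mark. Jarid2 is an accessory subunit that helps PRC2 bind chromatin. The counts measured the mark and not Jarid2 or the expression of any gene, so they do not check the deletion.

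The clusters also hold microRNA genes, all 6 of which lay wholly inside the peaks. Their mature sequences show which products the marked stretches would give and how they are shared between clusters. They are written 5′ to 3′ from RefSeq (GRCm38.p6) with the seed, bases 2 to 8, in capitals. The miR-10 pair shares the seed ACCCUGU and is encoded in HoxB (miR-10a, chr11:96317186-96317208, plus strand) and HoxD (miR-10b, chr2:74726074-74726096, plus strand). The miR-196 products share the seed AGGUAGU and are encoded in HoxA (miR-196b, chr6:52230129-52230150, minus strand), HoxB (Mir196a-1, chr11:96265187-96265208, plus strand) and HoxC (Mir196a-2, chr15:102973365-102973386, plus strand). In animals, miR-196 is known to target Hox messenger RNAs. HoxC also encodes miR-615 (miR-615-3p, chr15:103014969-103014990, plus strand).
miR-10a-5p: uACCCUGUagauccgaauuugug
miR-10b-5p: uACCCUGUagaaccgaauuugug
miR-196a-5p (Mir196a-1 and Mir196a-2): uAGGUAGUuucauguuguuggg
miR-196b-5p: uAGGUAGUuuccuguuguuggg
miR-615-3p: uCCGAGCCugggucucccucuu

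CpG-rich promoters are known as places where PRC2 is recruited, so 1 promoter is shown for each of the 4 domains with several Hox genes, the one nearest to the centre of the domain among the promoters that the RefSeq table holds for 22 of the 38 genes. Each run is the 250 bases before the RefSeq start (GRCm38.p6), 5′ to 3′ on the strand of the gene, with every CG in capitals. The letters CG read the same on both strands. Hoxa10 lies at chr6:52234940-52235189 (minus strand), Hoxb4 at chr11:96318017-96318266 (plus strand), Hoxc4 at chr15:103034145-103034394 (plus strand) and Hoxd3 at chr2:74711743-74711992 (plus strand).
Hoxa10: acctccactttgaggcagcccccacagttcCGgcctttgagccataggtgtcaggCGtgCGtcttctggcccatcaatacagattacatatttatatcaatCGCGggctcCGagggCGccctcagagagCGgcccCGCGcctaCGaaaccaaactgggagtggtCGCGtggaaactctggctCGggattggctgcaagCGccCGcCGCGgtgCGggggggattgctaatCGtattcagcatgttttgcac
Hoxb4: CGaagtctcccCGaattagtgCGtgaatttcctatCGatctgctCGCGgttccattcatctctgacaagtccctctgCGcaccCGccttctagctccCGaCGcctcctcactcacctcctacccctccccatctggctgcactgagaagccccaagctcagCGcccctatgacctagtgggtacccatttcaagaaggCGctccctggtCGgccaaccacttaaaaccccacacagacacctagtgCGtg
Hoxc4: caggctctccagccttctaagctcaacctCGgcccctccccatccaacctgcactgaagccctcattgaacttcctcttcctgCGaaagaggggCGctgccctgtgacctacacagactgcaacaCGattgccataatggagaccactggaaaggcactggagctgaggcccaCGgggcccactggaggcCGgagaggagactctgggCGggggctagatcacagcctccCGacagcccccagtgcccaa
Hoxd3: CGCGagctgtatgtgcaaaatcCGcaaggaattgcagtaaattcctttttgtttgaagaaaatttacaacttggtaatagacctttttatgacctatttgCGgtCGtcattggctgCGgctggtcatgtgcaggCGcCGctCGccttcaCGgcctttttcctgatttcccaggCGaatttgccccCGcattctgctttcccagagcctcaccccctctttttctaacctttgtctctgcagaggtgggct
The printed stretches hold 20 CG in Hoxa10, 14 in Hoxb4, 8 in Hoxc4 and 12 in Hoxd3. Hoxa10 has another start in the RefSeq table. With the 50 bases after the start included, that one holds 12 CG, against 21 for the start shown. Over the full window of 300 bases, from 250 before to 50 after a start, 24 promoters of 22 of the 38 Hox genes were in the RefSeq table and all 24 lay inside the peaks. Their CG count had a median of 14.5 and ran from 4 (Hoxa9, Hoxd4 and the poorer Hoxd11 start) to 45 (Hoxa13), against a median of 7 over all 32851 promoters of the table. Most of the 24 were starts of HoxA and HoxD genes, and Hoxc4 was the only HoxC gene among them. Of all promoters, 94.6% held at least 1 CG and 34.6% held as many as the Hox median or more. In HoxA and in HoxD, CG-poor and CG-rich Hox starts lay under the same continuous peak. GC content had a median of 57.7% in the Hox windows and 52.7% in all windows.

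The HoxA domain (chr6:52142890-52332850, mm10) was 189.961 kb wide and covered all 10 listed HoxA genes. It began 19.5 kb on the anterior side of Hoxa2 and ended 72.0 kb beyond Hoxa13, so that it also took in Evx1, a homeobox gene beside the cluster, and the long noncoding RNA gene Hottip. The HoxC domain (chr15:102882920-103152790) was 269.871 kb wide. It covered Hoxc4 to Hoxc13 (9 genes) with the noncoding gene Hotair, and it reached 38.2 kb beyond Hoxc13 and 116 kb beyond Hoxc4. The HoxD domain (chr2:74638350-74780400) was 142.051 kb wide. It covered 9 genes from Hoxd1 to Hoxd13 together with Evx2, ending 29.9 kb beyond Hoxd13 and 15.3 kb beyond Hoxd1.

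HoxB was the cluster whose called peaks left a gap. The level inside the gap was not measured, so a break in the mark itself was not tested. A peak of 83.601 kb (chr11:96145150-96228750) covered Hoxb13 alone, and a peak of 156.121 kb (chr11:96230660-96386780) covered the 9 genes from Hoxb1 to Hoxb9, with 1909 bp between them. Hoxb13, the most posterior HoxB gene, lies far from its neighbours in the cluster. The marked stretch began 49.2 kb beyond Hoxb13 and ended 18.5 kb beyond Hoxb1. It also held 50.4% of Ttll6, a gene beside the cluster that encodes a tubulin-modifying enzyme.

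Genes of every position were covered: 7 anterior genes (paralog groups 1 to 3), 15 central genes (groups 4 to 8) and 16 posterior genes (groups 9 to 13). The listed genes lay 15.3 kb (Hoxd1) to 131 kb (Hoxc5) from the nearer edge of their domain. The deposited annotation gave a peak a single gene name and called all 5 peaks promoter peaks, so it named 4 Hox genes in the clusters (Hoxa10, Hoxb13, Hoxb6 and Hoxc13) and filed the HoxD domain under Evx2. No deposited peak named 33 of the 38 genes, and Hoxd1 was named only by 2 peaks outside its own domain. A peak gives 1 count for all genes in it, so the counts cannot separate anterior from posterior genes of a domain.

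**Figure D1:**
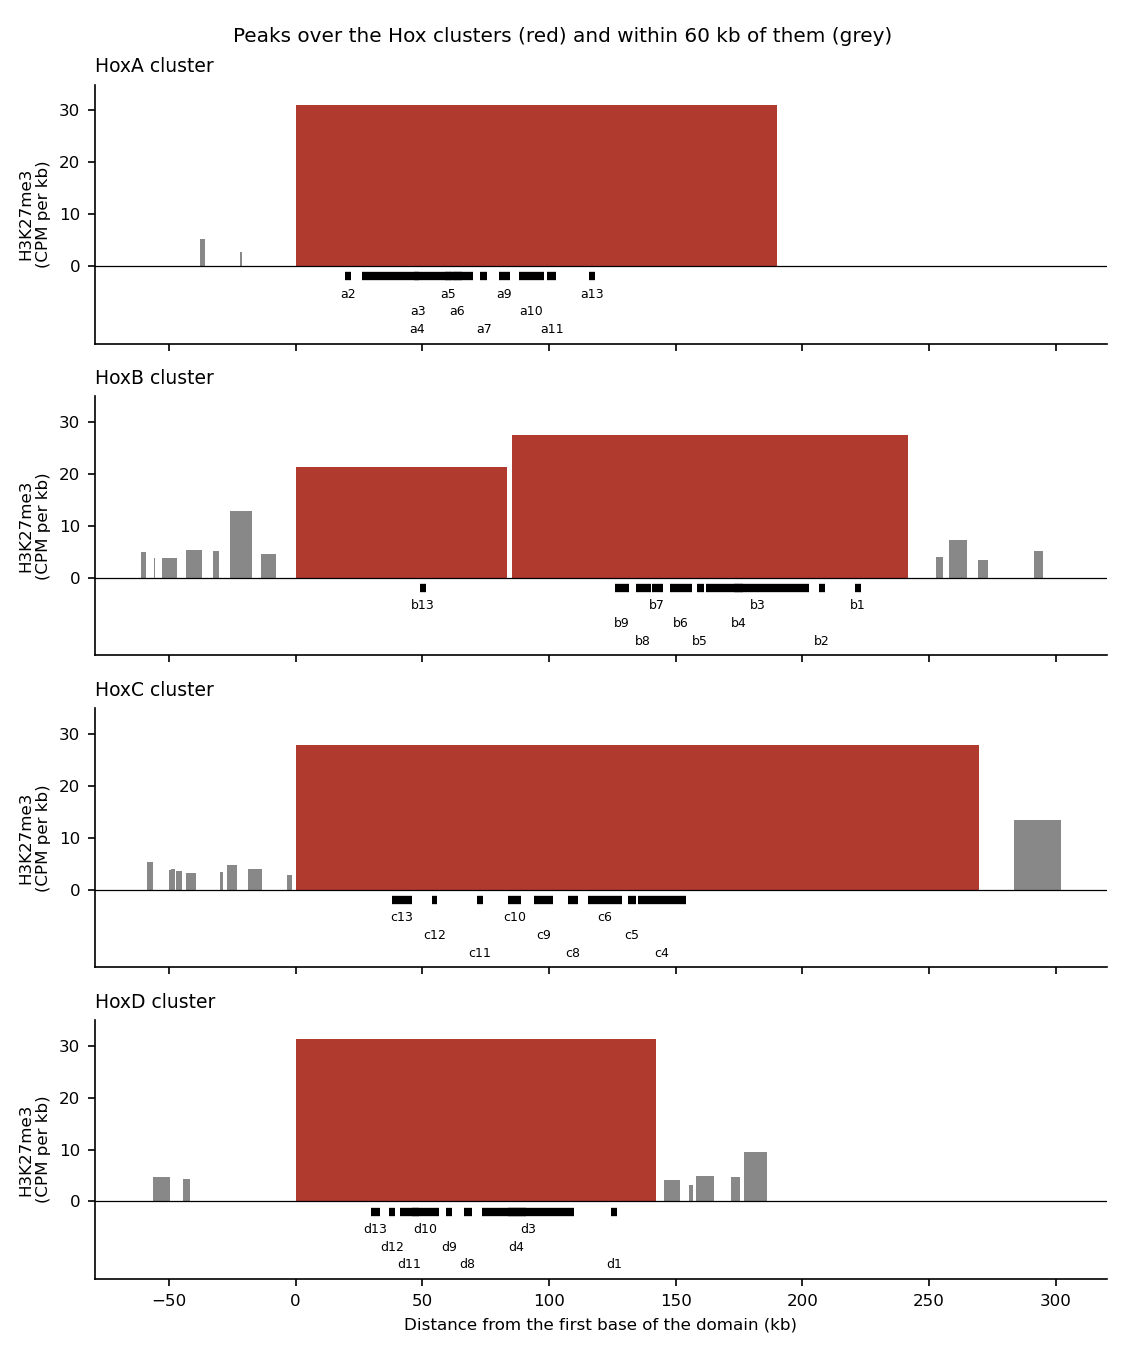
Peaks over the 4 Hox clusters (red) and within 60 kb of them (grey). The horizontal axis gives the distance in kb from the first base of each domain, the vertical axis the mean H3K27me3 level over 10 animals in CPM per kb, and black bars mark the Hox genes (a2 stands for Hoxa2). The red blocks stand at 21.3 to 31.3 CPM per kb and the grey peaks at 2.68 to 13.5.

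The domains were among the widest and fullest of all deposited peaks. By width they ranked in places 1 (HoxC), 2 (HoxA), 3 (HoxB over Hoxb1 to Hoxb9), 4 (HoxD) and 12 (HoxB over Hoxb13) of 19034. By reads summed over the 10 animals, HoxC led with 165218 reads, before HoxA with 129364, HoxD with 97605 and the longer HoxB peak with 94184, and the Hoxb13 peak was in place 15 with 39146. Counts grow with width, so levels were compared per kb.

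Per kb, the mean level over the 10 animals (CPM, a count scaled to a fixed total of reads in peaks) was 31.3 CPM per kb in HoxD, 31.0 in HoxA, 27.9 in HoxC, 27.5 in the longer HoxB peak and 21.3 in the Hoxb13 peak. The median of all peaks was 5.13 CPM per kb, so the Hox domains were 4.16 to 6.11 times as dense. By density they ranked in places 123 to 691. They were thus not the densest peaks, and the median of the 35 other autosomal peaks of 50 kb or more was 21.2 CPM per kb.

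Part of the order among the domains was the same in 10 of 10 animals. The Hoxb13 peak was the least dense in 10 of 10 animals, with 0.755 to 0.815 of the level of the longer HoxB peak beside it. HoxD and HoxA were each denser than HoxC and than the longer HoxB peak in 10 of 10 animals. HoxD exceeded HoxA in 8 of 10 animals, with ratios of 0.972 to 1.04, and HoxC exceeded the longer HoxB peak in 6 of 10, so the order within these 2 pairs was not fixed.

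**Figure D2:**
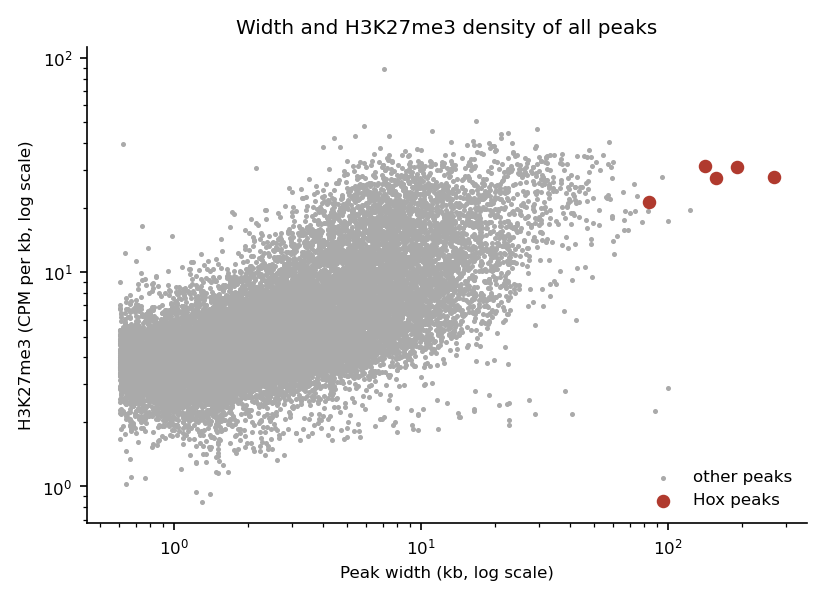
Width in kb (horizontal, log scale) and mean H3K27me3 level in CPM per kb (vertical, log scale) of each of the 19034 peaks, with the 5 Hox peaks in red. The Hox peaks lie at the right edge, with widths of 83.601 to 269.871 kb and levels of 21.3 to 31.3 CPM per kb.

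The peaks nearest to the domains were less dense than the domains. The edges of the domains were set by the peak calling, and signal between called peaks was not measured. The nearest peaks on either side, 1.27 to 152 kb away, had 2.68 to 13.5 CPM per kb, and the domains were 2.07 to 11.6 times as dense as these neighbours. The smallest step was between HoxC and an 18.411 kb peak assigned to Smug1, which encodes a DNA repair enzyme. On the higher-coordinate side of HoxA, no peak was listed for 152 kb.

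The main question was whether H3K27me3 over the clusters differed where Jarid2 was deleted. None of the 5 Hox peaks passed the test: 0 were lower and 0 higher in cKO, where 7.38% of all 16307 tested peaks were lower and 1.46% higher, 8.84% together (edgeR quasi-likelihood test with batch as a term, adjusted p under 0.05). No Hox peak had an unadjusted p under 0.05 (0 of 5, against 21.5% of all tested peaks), and DESeq2 also called 0 of 5, against 5.6% of the 14236 peaks with an adjusted p. The levels per animal follow, in CPM scaled with TMM factors, which set the libraries to a common scale by the bulk of the peaks.

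The HoxA domain had 6286, 6492, 5824, 5619 and 5213 CPM in cKO 1 to 5, against 7418, 6579, 6158, 5378 and 4681 CPM in control 1 to 5. The cKO range lay inside the control range. The mean was 5887 ± 514 CPM in cKO and 6043 ± 1059 CPM in controls (SD, n = 5 each). The log2 fold change was -0.03 ± 0.083 (SE, 95% confidence interval -0.20 to 0.14, edgeR adjusted p = 0.888).

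The HoxB peak over Hoxb1 to Hoxb9 had 4514, 4663, 4230, 4109 and 3725 CPM in cKO, against 5417, 4794, 4488, 3984 and 3476 CPM in controls. The animals of the 2 genotypes overlapped, with means of 4248 ± 366 CPM in cKO and 4432 ± 745 CPM in controls (SD, n = 5 each). The log2 fold change was -0.05 ± 0.081 (SE, 95% confidence interval -0.22 to 0.11, edgeR adjusted p = 0.768). The peak over Hoxb13 had 1875, 1908, 1761, 1664 and 1609 CPM in cKO, against 2191, 1972, 1865, 1663 and 1517 CPM in controls. The animals stood in the same order as in the longer peak, with means of 1764 ± 129 CPM in cKO and 1842 ± 263 CPM in controls (SD, n = 5 each). Its log2 fold change was -0.06 ± 0.071 (SE, 95% confidence interval -0.20 to 0.09, edgeR adjusted p = 0.710).

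The HoxC domain had 8128, 8302, 7393, 7027 and 6770 CPM in cKO, against 9243, 8281, 7716, 7001 and 6310 CPM in controls. The mean was 7524 ± 671 CPM in cKO and 7710 ± 1133 CPM in controls (SD, n = 5 each). Its log2 fold change was -0.03 ± 0.078 (SE, 95% confidence interval -0.19 to 0.13, edgeR adjusted p = 0.874). The HoxD domain had 4817, 4944, 4343, 4259 and 3934 CPM in cKO, against 5565, 4986, 4478, 4181 and 3547 CPM in controls. In both domains the cKO animals lay between the highest control, control 1, and the lowest, control 5. The log2 fold change of HoxD was -0.02 ± 0.078 (SE, 95% confidence interval -0.18 to 0.14, edgeR adjusted p = 0.915).

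A p above the threshold does not show equal levels, so the intervals set the limit. They hold for levels relative to the bulk of the peaks. A change of the mark shared by most peaks would be scaled away and would not show here. Over the 5 peaks, the 95% intervals of the fold ran from 0.858 to 1.10. Scaled by the total count and not by TMM factors, the log2 fold changes of HoxA, HoxC and HoxD turned positive (0.02 to 0.03), and they also did so without control 1 or without control 3, so the sign of these 3 small differences was not settled. Without control 5 the 5 log2 fold changes were -0.13 to -0.09. The 95% intervals of both HoxB peaks then lay below 0 (-0.23 to -0.02 for the longer peak and -0.22 to -0.02 for the Hoxb13 peak), while their edgeR adjusted p of 0.144 and 0.148 did not pass the threshold. Assigned instead to RefSeq gene bodies, the 38 Hox genes gave log2 fold changes of -0.06 to -0.02 and 0 calls, with a smallest adjusted p of 0.502, where 5.9% of 5711 genes were lower. Genes of 1 domain share the counts of that domain there.

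**Figure D3:**
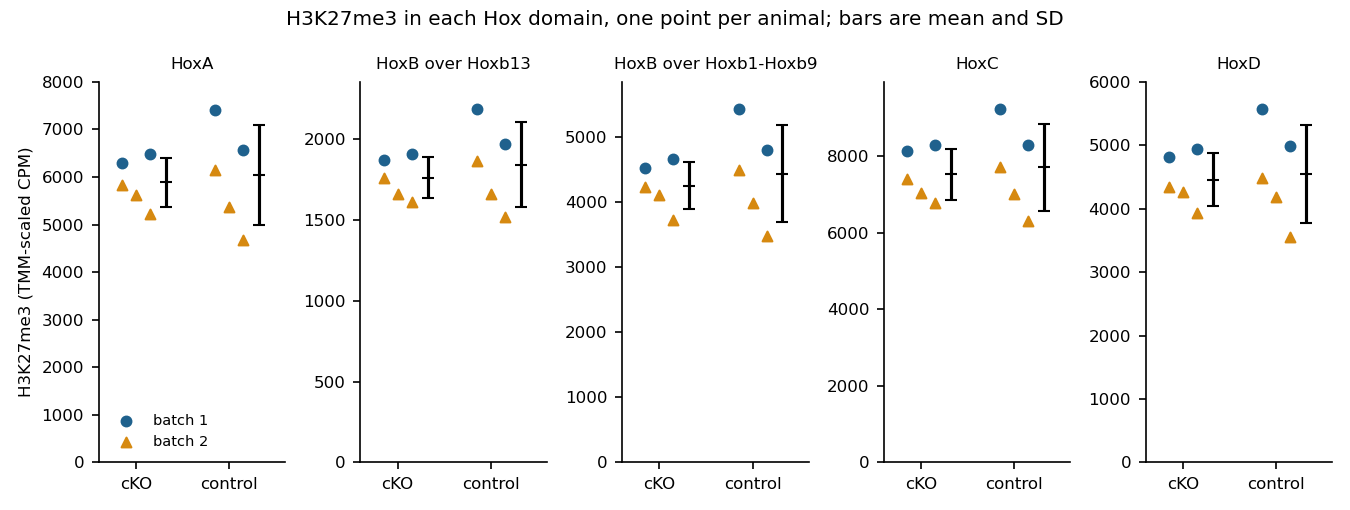
H3K27me3 level in CPM scaled with TMM factors (vertical axis, from 0) in each Hox domain, with 1 point per animal, cKO left and control right, and batch shown by colour and shape. Bars give mean and SD (n = 5). In each panel the cKO animals lie between control 1, the highest, and control 5, the lowest.

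The other wide peaks set the Hox domains in context. Of the 35 other autosomal peaks of 50 kb or more, 2 (5.71%) were lower and 0 higher in cKO. Of all tested peaks, 7.38% were lower and 1.46% higher. The 35 peaks had a median log2 fold change of -0.05. The peak assigned to Lmo1, a LIM-domain transcription regulator, fell (log2 fold change -0.53 ± 0.077, edgeR adjusted p = 8.71e-05). That assigned to 4933439N14Rik fell as well (-0.21 ± 0.064, adjusted p = 0.0465), a call kept in 3 of 10 fits that left out an animal. It was lost without cKO 1 to 4 or control 2 to 4 (adjusted p up to 0.183). Over the 5 Hox peaks the median was -0.03, and over all tested peaks 0.02.

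The Hox peaks differed between the batches. In all 5 the level was higher in batch 1 than in batch 2, where 6.19% of all tested peaks were higher and 6.1% lower (edgeR, adjusted p under 0.05). In HoxD the batch 1 means were 4881 CPM in cKO and 5275 CPM in controls, and the batch 2 means 4178 CPM in cKO and 4068 CPM in controls. The log2 fold change of batch 1 over batch 2 was 0.30 ± 0.079 in HoxD (SE; adjusted p = 0.0156, edgeR). It was 0.29 ± 0.085 in HoxA (adjusted p = 0.0281), 0.27 ± 0.082 in the longer HoxB peak (0.0310), 0.27 ± 0.080 in HoxC (0.0287) and 0.24 ± 0.072 in the Hoxb13 peak (0.0312). These correspond to folds of 1.18 to 1.23. The 95% intervals of all 5 lay above 0.

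These batch calls depended on single animals and on the scaling. With DESeq2 size factors 1 of 5 was called (adjusted p of 0.0348 to 0.0652), and without the 2 female animals 1 of 5 (0.0489 to 0.105). Without cKO 1, 3 of 5 were called. Without cKO 2, cKO 4, cKO 5, control 1, control 2 or control 4, 1 of 5 was called in each fit. The log2 fold changes ran from 0.16 to 0.35 over all these settings and were positive in each. Without the 2 female animals, which leaves males alone, the log2 fold changes of batch 1 over batch 2 were 0.29 to 0.35, and with 1 technical duplicate per animal they were 0.20 to 0.28. The batches were also different litters, which cannot be told apart from batch here. The 6 pairs of duplicates differed by at most 0.0673 percentage points in the share of reads in the Hox peaks, with a chi-square per degree of freedom of 0.880 to 0.997, within counting noise, and were summed.

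**Figure D4:**
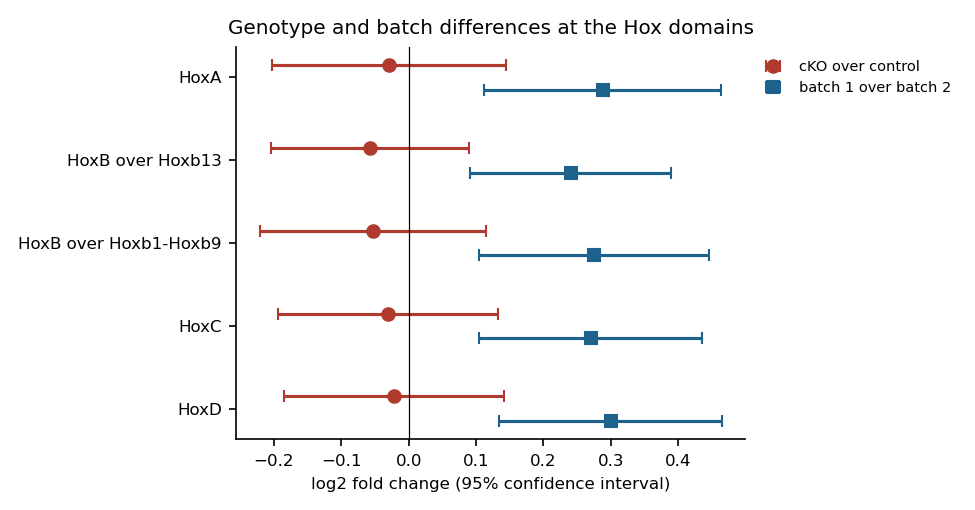
Log2 fold change (horizontal axis) with its 95% confidence interval in each Hox domain, for cKO over control (red circles) and for batch 1 over batch 2 (blue squares). The 5 genotype intervals span 0, and the 5 batch intervals lie above 0.

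Within batches the genotypes were also compared. In batch 1 alone, the log2 fold changes of cKO over control were -0.15 to -0.09 (edgeR adjusted p = 0.454 to 0.626, 2 animals each). In batch 2 alone they were -0.01 to 0.03 (edgeR adjusted p = 0.954 to 0.999, 3 animals each). The test of the difference between the batches gave values of 0.10 to 0.17 (batch 2 minus batch 1, unadjusted p = 0.340 to 0.554 and adjusted p = 0.999968 with edgeR) and called 0 Hox peaks, against 0.0123% of all tested peaks. No other tool was run for it.

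The deposited fold changes of the Hox peaks were those of the batches. In the authors' deposited table the 5 peaks had log2 fold changes of 0.23 to 0.29 with adjusted p of 2.81e-04 to 0.00435, where 5.9% of peaks with an adjusted p were higher. The header of that table does not name the contrast. A DESeq2 refit on the 16 libraries with genotype and batch as terms gave, for batch 1 over batch 2, values within 1.58e-04 of the deposited log2 fold change at each of the 19034 peaks. For cKO over control the same refit gave -0.04 to -0.003 at the 5 peaks (adjusted p = 0.769 to 0.988). It took technical duplicates as separate samples, so its p-values, and the deposited ones it reproduced at the 5 peaks, do not rest on animals alone. In the deposited table the test statistic has the opposite sign to the fold change at 100% of peaks.

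The Hox domains moved together from animal to animal. Control 1 was highest and control 5 lowest in each of the 5 peaks, and the highest animal had 1.44 to 1.58 times the level of the lowest. The coefficient of variation was 7.34% to 9.34% in cKO and 14.3% to 17.5% in controls, where counting error gives at most 0.872% to 1.79%. Whether the spread differs between genotypes was not tested. The ratio of any 2 Hox peaks within an animal varied far less, by 1.04-fold (HoxA to the longer HoxB peak) to 1.11-fold (HoxD to the Hoxb13 peak) between its lowest and highest animal.

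The Hox peaks took 2.53%, 2.58%, 2.36%, 2.31% and 2.23% of the reads in peaks in cKO 1 to 5, against 2.77%, 2.51%, 2.38%, 2.20% and 2.08% in control 1 to 5. The other peaks of 50 kb or more took 5.33%, 5.49%, 5.13%, 5.10% and 4.94% in cKO, against 5.74%, 5.42%, 5.20%, 5.05% and 4.93% in controls. Both shares were highest in control 1 and lowest in control 5. The 6708 autosomal peaks under 2 kb took 3.49%, 3.41%, 3.59%, 3.79% and 3.96% in cKO, against 3.11%, 3.35%, 3.38%, 3.61% and 4.21% in controls, and there control 1 was lowest and control 5 highest. Within each genotype, an animal with a higher share in these other wide peaks had a lower share in the narrow peaks. Control 1 is also the control that carries Cre.

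The batch difference followed the width of the peaks. The median log2 fold change of batch 1 over batch 2 was 0.27 in the 5 Hox peaks, 0.21 in the 35 other peaks of 50 kb or more, 0.16 in the 400 of 20 to under 50 kb and -0.08 in those under 2 kb. Higher levels in batch 1 were called at 100% of the Hox peaks, 48.6% of the other widest, 26.25% of the 20 to under 50 kb peaks and 0.542% of those under 2 kb, and wide peaks with many reads are easier to call. The part of read depth, of background in each library or of the width of the peaks in this order was not tested.

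**Figure D5:**
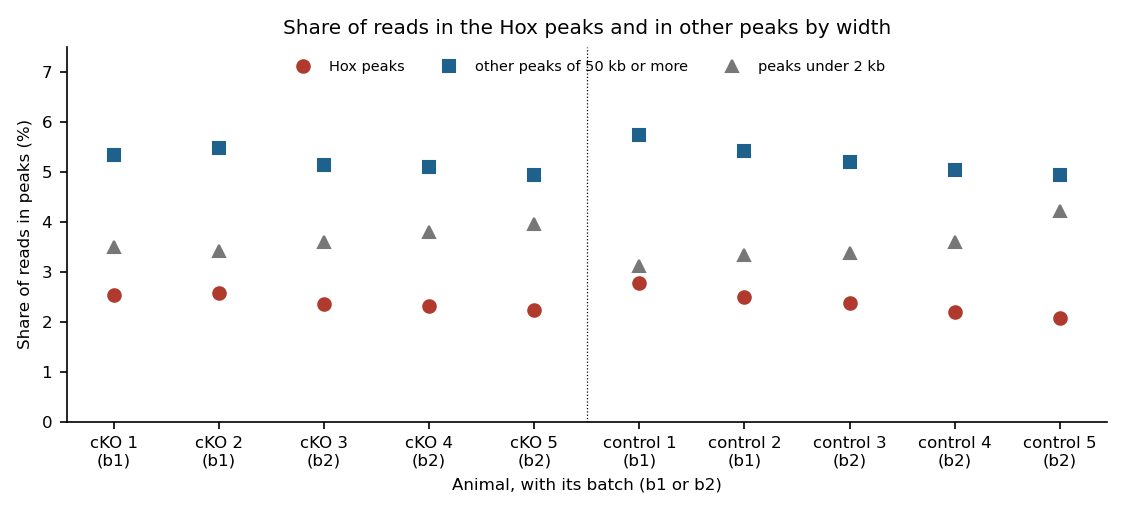
Share of the reads in peaks (%, vertical axis from 0) that fell in the 5 Hox peaks, in the 35 other autosomal peaks of 50 kb or more and in autosomal peaks under 2 kb, for each animal, with cKO left of the dotted line and controls right (b1 and b2 give the batch). The Hox share ran from 2.23% to 2.58% in cKO and from 2.08% to 2.77% in controls.

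The weak peaks around the domains were examined next. Within 60 kb of the domains lay 30 peaks, of which 26 were tested. Of these, 0 were called lower or higher, where 7.38% of all tested peaks were lower and 1.46% higher. DESeq2 gave 24 of the 30 an adjusted p and also called 0. With edgeR, 4 of the 26 were under 0.05 before adjustment, where 21.5% of all tested peaks were. Of the 26, 24 had a positive log2 fold change in cKO, with a median of 0.18, where 54.4% of all tested peaks were positive. Among autosomal peaks under 6 CPM per kb, the range that holds most of them, 62.0% were positive, with a median of 0.08.

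Summed over these 30 peaks, the level was 931, 994, 870, 885 and 914 CPM in cKO 1 to 5, against 940, 794, 821, 816 and 841 CPM in control 1 to 5. All 5 cKO animals were above 4 of the 5 controls, and only cKO 2 was above control 1. The Hox domains were 4.23, 4.08, 4.18, 3.95 and 3.58 times as dense as this surrounding signal in cKO, against 4.90, 5.16, 4.64, 4.20 and 3.57 times in controls. In batch 1 the ratios of the 2 cKO animals lay below those of both controls. In batch 2 the genotypes overlapped. No test was made of these sums, which were formed after the values were seen.

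Summed by deposited gene name, 5 of the 38 Hox genes could be tested, and 0 were lower and 0 higher in cKO, where 8.29% of 11324 genes were lower and 1.48% higher. Before adjustment 1 of the 5 was under 0.05, where 23% of the 11324 genes were, and DESeq2 called 0. This gene was Hoxd1, an anterior HoxD gene, through the 2 peaks outside the HoxD domain. It had 31.1, 34.7, 38.4, 33.9 and 34.6 CPM in cKO, against 31.2, 23.4, 25.4, 32.5 and 27.1 CPM in controls. The animals of the 2 genotypes overlapped. The log2 fold change was 0.30 ± 0.10 (SE; adjusted p = 0.0768, edgeR), and it passed the threshold when scaled by the total count and when control 1 was left out (adjusted p = 0.0418 and 0.0346), and not with DESeq2 (0.383). The body of Hoxd1 itself lay in the HoxD domain, with 4459 ± 416 CPM in cKO and 4551 ± 770 CPM in controls (SD, n = 5 each).

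Related gene families were counted from lists. TALE homeodomain proteins (the Meis, Pbx and Pknox families) bind DNA together with Hox proteins. Of 9 such genes, 3 could be tested, and 1 was lower and 0 higher in cKO. Of all tested genes, 8.29% were lower and 1.48% higher. Meis2 had 520, 523, 520, 514 and 472 CPM in cKO, against 589, 661, 613, 605 and 516 CPM in controls. All 5 cKO animals lay below 4 of the 5 controls, and the log2 fold change was -0.23 ± 0.061 (SE; adjusted p = 0.0223, edgeR). This call was lost without cKO 1, cKO 2, cKO 5, control 2, control 3 or control 4 (adjusted p up to 0.0788). Meis3 stood at 0.07 on that scale (adjusted p = 0.524). Pknox2 held under 5 CPM in both genotypes. No deposited peak named Meis1, Pknox1 or the 4 Pbx genes.

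ParaHox and Cdx genes are the closest relatives of the Hox genes outside the clusters, and the Cdx proteins regulate Hox genes in the trunk. Of these 6 genes 5 could be tested, and edgeR and DESeq2 both called 0, with a median log2 fold change of -0.03. With edgeR, 8.29% of all tested genes were lower and 1.48% higher. None of the 5 had an unadjusted p under 0.05, against 23% of all tested genes. Cdx1 had 194 ± 6.93 CPM in cKO and 187 ± 17.7 CPM in controls (SD, n = 5 each). Pdx1, a regulator of the pancreas, had 1891 ± 140 CPM in cKO and 1940 ± 247 CPM in controls. Gsx2, a regulator of the ventral forebrain, had 1088 ± 80.6 CPM in cKO and 1118 ± 148 CPM in controls.

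Of 13 genes beside the clusters, 8 could be tested, and 1 was lower and 0 higher in cKO. Of all tested genes, 8.29% were lower and 1.48% higher. The Evx2 entry of this list was the HoxD domain itself, whose peak of 142.051 kb carries that name. The gene called was Lnpk, which lies beyond Evx2 on the posterior side of HoxD and encodes a protein of the endoplasmic reticulum. It had 386, 395, 456, 457 and 458 CPM over its 7 peaks in cKO, against 475, 515, 542, 529 and 487 CPM in controls. All 5 cKO animals lay below all 5 controls, with a log2 fold change of -0.25 ± 0.056 (SE; adjusted p = 0.00644, edgeR). The call held in 10 of 10 fits that left out an animal (adjusted p up to 0.0304) and with DESeq2, but not without a batch term (0.0747). Mtx2, on the other side of HoxD, had 144 ± 6.91 CPM in cKO and 128 ± 14.6 CPM in controls (SD, n = 5 each, log2 fold change 0.16 ± 0.073, edgeR adjusted p = 0.178). For Skap2, beside HoxA, it was -0.06 ± 0.060 (adjusted p = 0.598). Over all genes the median was 0.02. The 14 noncoding genes listed for the clusters were named by 0 deposited peaks.

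The tissue label was read against marker genes, remembering that H3K27me3 marks silent genes. No deposited peak named the retinal regulators Rax, Six3 and Six6 or the photoreceptor gene Crx. Markers of cells that should not be abundant in retina carried the mark in part: Foxe3 of the lens had 1222 ± 90.5 CPM in cKO and 1234 ± 165 CPM in controls, and Myod1 of muscle had 237 ± 14.8 CPM in cKO and 239 ± 30.4 CPM in controls (SD, n = 5 each). Of the lists for lens, blood, muscle and for hindbrain and spinal cord, 1 or 2 of 3 genes had a tested peak and 0 were called. None of the 3 endothelial genes did. Of the pigment epithelium list, Mitf was the gene tested and it was lower in cKO, with edgeR but not with DESeq2. Of the retinal list, 3 of 5 tested genes were lower in cKO with edgeR and 2 with DESeq2, where 8.29% of all tested genes were lower with edgeR. The list summed to 1671 CPM in cKO and 1943 CPM in controls. The hindbrain and spinal cord list summed to 1095 CPM in cKO and 1161 CPM in controls. A part of other cell types in the Hox results was not tested.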

How the data were processed

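H3K27me3 CUT&RUN was analysed in 16 libraries from 10 animals. The other libraries, 6 with IgG, are not analysed here. The tools, per the submitters' processing notes, were DESeq2 1.38.1, MACS2, SAMtools and Novoalign 4.02.02, on build mm10. For the peak calling, settings and libraries were not given in sources used here. The authors deposited whole-number counts per peak and library. Per the file headers they also deposited a mean normalised signal, log2 fold changes and their standard errors, a test statistic (a score) and p-values.

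Counts of technical duplicates were summed per animal (1688368 to 2864080 reads in peaks). Low peaks were removed with filterByExpr, TMM factors were computed, and edgeR 4.0.16 (R 4.3.3) quasi-likelihood tests with batch as a term were run on 16307 of 19034 peaks, with Benjamini-Hochberg adjustment at 0.05. Counts summed by deposited gene name were tested in the same way. DESeq2 1.42.0 was an alternative test and refitted the deposited contrast. The steps were tested on simulated data. The standard error was the log2 fold change divided by the square root of F. P-values of these fits set a difference against the spread between animals. The refit of the deposited contrast used libraries, with technical duplicates as separate samples. CPM per kb used reads in peaks without TMM factors.

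Gene positions, promoters and microRNAs came from RefSeq GRCm38.p6, the assembly behind mm10, matched by symbol: 38 of 38 Hox genes and, for promoters, 22 of 38 matched. Figures used matplotlib 3.10.9. All Hox genes could be named. In each list of related genes the 3 with the smallest p were named, and in each cluster every peak, since none held more than 2. Members and lists were chosen with earlier results of these data known. Marker genes were named after their values were seen. Alternatives were leaving out the filter or the batch term, other scalings, sex as a term, a replicate block, each batch or duplicate alone, DESeq2, leaving out each animal, other overlap rules and, added after seeing the data, the test of the batches and leaving out both females.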

Additional observations from a re-analysis of the deposited data

Results flagged for a closer look

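Among the cKO animals the summed peaks of Meis2, a TALE homeodomain gene, stood apart in 1 animal. The animal cKO 5 had 472 CPM, and the other 4 had 514 to 523 CPM. The gap to the nearest animal was 0.817 of the range of the 5, where the limit for 5 values is 0.710. Chance alone gives a gap above this limit in about 1 of 20 groups. Many groups of animals were screened in this way, so some can pass it by chance. Without cKO 5 the call of Meis2 was lost (adjusted p = 0.0769, edgeR). The cause was not tested.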

How the results depend on the processing

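Of 115 alternative values of the 5 genotype differences, 101 kept their sign and 0 passed the threshold (smallest adjusted p = 0.144, log2 fold changes -0.15 to 0.03). The other 14 changed sign at small values, and the cause was not tested. With the total count, HoxA had 0.019, HoxC 0.017 and HoxD 0.026. In batch 2 alone, HoxA had 0.028, HoxB over Hoxb1 to Hoxb9 0.0031, HoxC 2.5e-04 and HoxD 0.028. With the first technical duplicate only, HoxD had 9.6e-05. Leaving out each animal in turn gave -0.10 to 0.017 for HoxA, -0.13 to -0.01 for the longer HoxB peak, -0.12 to -0.02 for the Hoxb13 peak, -0.089 to 0.0039 for HoxC and -0.094 to 0.015 for HoxD. The lowest values came without control 5 and the highest without control 1 or control 3.

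With a replicate block the log2 fold changes were -0.03 (HoxA), -0.05 (longer HoxB peak), -0.06 (Hoxb13), -0.03 (HoxC) and -0.02 (HoxD), with 0 calls. The deviations of same-numbered animals had correlations of -0.42, -0.40, 0.17, -0.10 and -0.01 for numbers 1 to 5. With 2 animals per genotype in batch 1, such deviations are not independent. They gave no ground for pairing by number and cannot show that the animals were unpaired.

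Counts that moved were these. Hox genes called higher by deposited name numbered 1, Hoxd1, at an adjusted p under 0.10 and with the total count, and 0 to 1 when an animal was left out (1 without control 1). Hox genes covered numbered 22 when counted by start sites in the promoter table and 4 by the deposited names inside the clusters. Peaks of the clusters numbered 0 when required to lie wholly inside the coordinates and 17 with the coordinates widened by 50 kb. Hox peaks called higher in batch 1 numbered 1 with DESeq2 size factors, 1 without the 2 female animals and 1 to 5 when an animal was left out.

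Without a batch term, and in either batch alone, Meis2, Lnpk and the 4933439N14Rik peak did not pass (adjusted p = 0.0747 to 0.405). The Lmo1 peak did not pass in batch 1 alone (0.155).

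At 3134 to 21321 reads per Hox peak and animal, counting error was small, and the number of animals limits the precision. The depth cannot separate genes that share a peak.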
